A study of Mus musculus with 4 samples.

Results

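Integrins and the proteins that couple them to the actin cytoskeleton were followed in NIH-3T3:Per2-Luc cells, a mouse embryonic fibroblast line that carries a Per2 promoter luciferase reporter of the circadian clock. The group held 32 named genes, listed by name, out of 30175 gene names on the array: 6 beta subunits, 11 alpha subunits, 11 proteins that bind the beta tail or link it to actin, and 4 kinases and docking proteins. They were read by 48 of the 39429 probes, and each gene took the value of its brightest probe. Total RNA was hybridised to 4 one-color arrays on 1 slide. One array held the control, which received 0 mM H2O2 and an exchange to fresh medium and carries a label of 4 h. The others held cells given a cOS-pulse (critical oxidative stress, 5 mM H2O2 for 10 min) and collected after 4 h, 20 h or 32 h. All 4 arrays came from the same reporter line, and neither later time had a control of its own. With 1 array per condition there was no replicate spread and no test could be made, so each difference below is between 2 arrays and carries only the scanner's spot error.

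Integrins are pairs of an alpha and a beta chain that span the membrane. The alpha chain does much to set which matrix protein is bound, and the short beta tail is gripped inside the cell by talin and kindlin. Talin and its partners carry the load to actin filaments, while focal adhesion kinase, Src, paxillin and p130Cas turn attachment into signals for spreading, migration and survival. In fibroblasts these assemblies are the focal adhesions that anchor the cell to its dish.

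The site where talin and kindlin bind is shown here because the probe used for Itgb1, the common partner of most alpha chains, was designed over it. The 60 bases of the probe map to chr8:131250081-131255976 on the plus strand (mm9, per the array annotation). The capitals mark 2 stretches of 12 bases that match the codon pattern of the NPxY motifs (asparagine, proline, any residue, tyrosine), which talin and kindlin recognise on beta tails.
Itgb1 probe: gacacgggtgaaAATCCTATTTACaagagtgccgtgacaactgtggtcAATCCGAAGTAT

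Levels are given as scaled log2 signal, the log2 of the processed intensity minus the 75th percentile of its array. They compare 1 probe across arrays and say nothing of one gene's level against another's. A probe was counted as present on an array where its signal was well above background. Of the 32 genes, 28 were present in the control, 27 at 4 h, 28 at 20 h and 27 at 32 h. Itga2, Itga3, Itga4 and Itgb8, chains of collagen, laminin, fibronectin and latent TGF-beta receptors, were not well above background on any array and gave no ratio.

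At 4 h the genes lay mostly below the control. Among the 27 measured on both arrays, 17 were below and 10 above, with a median log2 ratio of -0.28. The median of all 15806 gene names measured was 0.17, and 39.542% of them were below the control. Past 2-fold there was 1 gene higher, Itga7, and 3 genes lower, Tns1, Itgb5 and Bcar1, among the 28 with a ratio. Those shares, 3.571% and 10.714%, stand beside 11.1% higher and 8.26% lower over all gene names, so neither count set the group apart. Beyond 2 spot errors lay 4 of the 27 genes above the control and 10 below, where 31% and 21.5% of all gene names did.

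The reference level bears on every sign at 4 h. Under 5 other scalings the median of all genes moved by -0.12 to -0.40 on the log2 scale, and the share of genes called higher among all 2-fold calls went from 57.259% to between 26.014% and 46.444%. The group's median lay -0.46 from that of all genes, a distance that scaling by 1 constant per array cannot change, and -0.38 after quantile normalization, the one alternative scaling that could change it. Of the 27 genes, 21 kept their sign under all 5: Itga1, Itga5, Itga7 and Itgb1 above the control and 17 genes below. Every scaling by a constant lowered all ratios at 4 h, so only quantile normalization could have turned a gene already below. For the 17 genes the kept sign is therefore little of a check. These signs are those of the brightest probe. Among the 17, Ptk2, Itga6, Fermt2 and Itgav each had another probe above the control at 4 h (below). Itgb3, Parva and Lims1, which lay within 0.022 of the control, turned below it under all 5, Pxn under 4, Itgb4 under 3 and Itgb7 under 2.

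**Figure D1:**
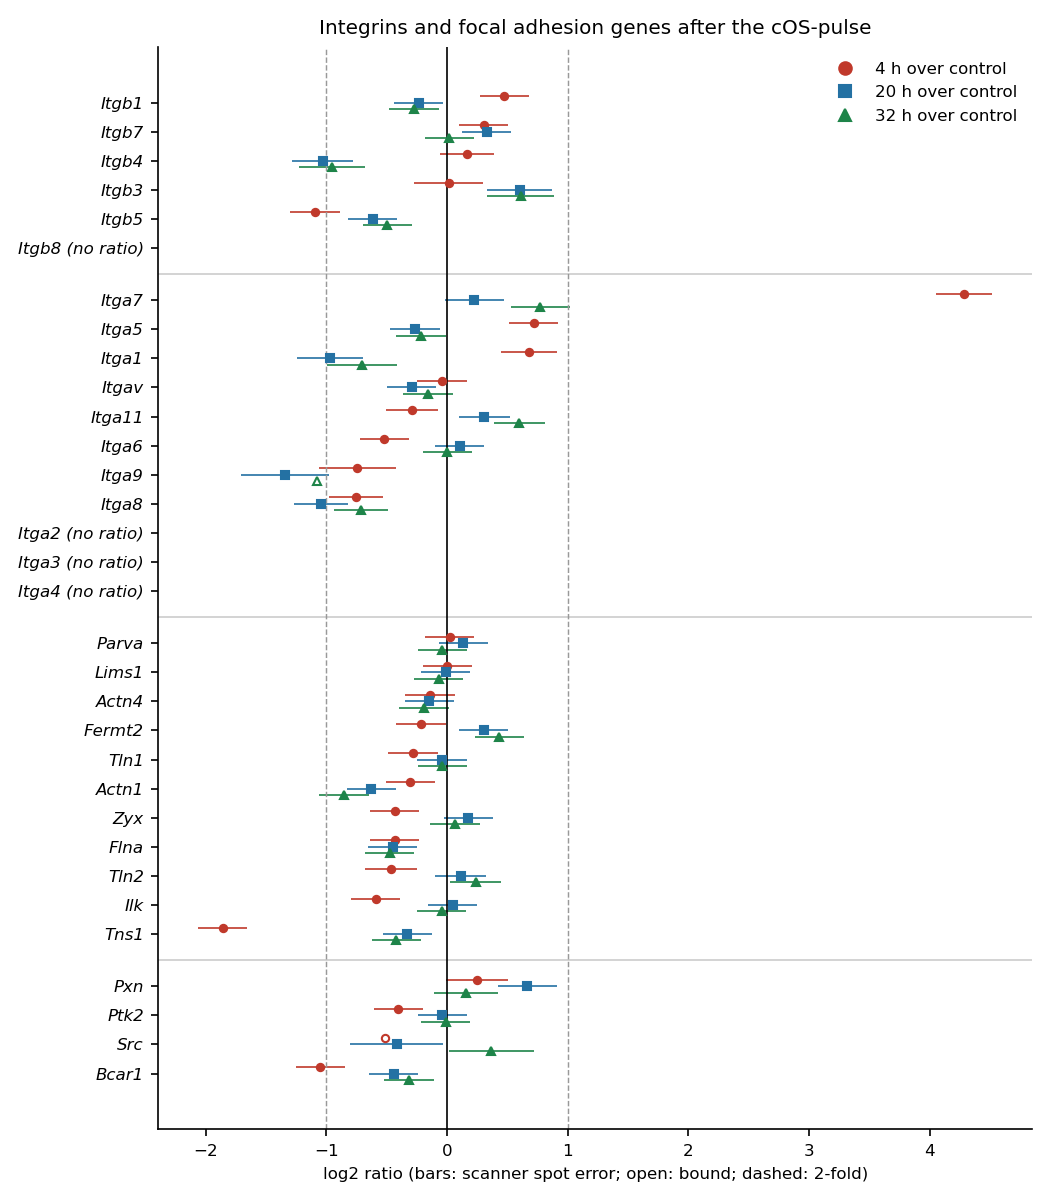
Log2 ratio over the control (x axis) for each gene, grouped by role from beta subunits at the top to kinases and docking proteins at the bottom, at 4 h (red circles), 20 h (blue squares) and 32 h (green triangles), with scanner spot errors as bars, bounds as open symbols and 2-fold as dashed lines. Itga7 at 4 h lies at 4.29 and Tns1 at -1.86, while most linker proteins sit between -0.59 and 0.022 at 4 h. At 4 h the signs of Itgb3, Itgb4, Itgb7, Pxn, Parva and Lims1 turn under some scalings.

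**Figure D2:**
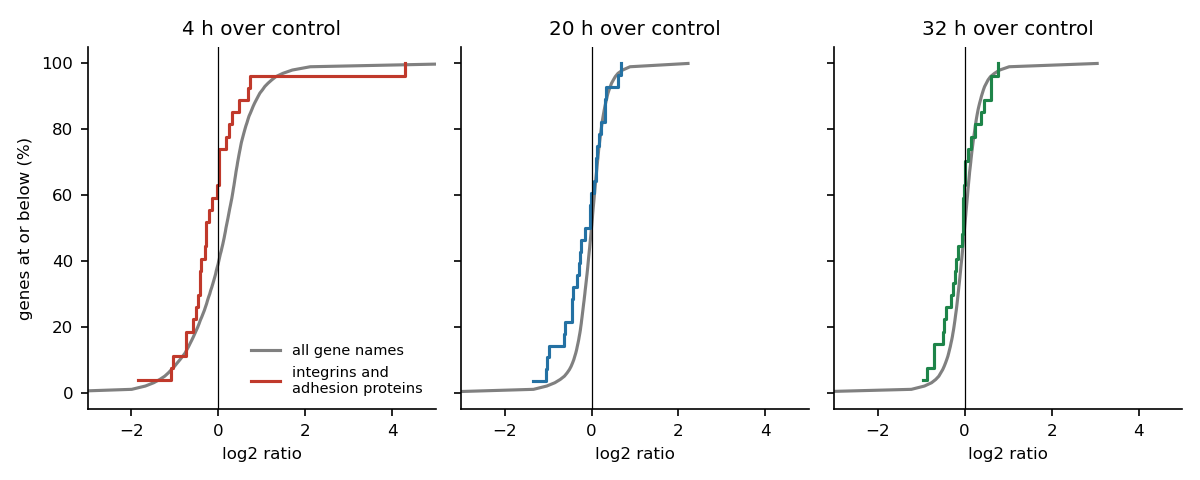
Percent of genes (y axis) at or below each log2 ratio (x axis) for all gene names measured on both arrays (grey) and for the integrin and adhesion genes (coloured steps). At 4 h the steps lie left of the grey line over the middle of the range, with medians of -0.28 and 0.17, and at 20 h and 32 h the medians are -0.094 and -0.043 beside -0.0010 and -0.00060.

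Among the beta subunits, Itgb1 was the one that lay above the control at 4 h under every scaling. Its scaled log2 signal was 1.67 in the control, 2.14 at 4 h, 1.43 at 20 h and 1.40 at 32 h, so the 4 h array was the highest of the 4. The log2 ratio was 0.47 ± 0.20 (spot error) at 4 h, -0.23 at 20 h and -0.27 at 32 h, and the 20 h value turned above 0 without scaling. Under the other scalings the 4 h value ran from 0.07 to 0.37, the lowest well within its spot error. A second Itgb1 probe, chr8:131246349-131246408 (mm9), gave 0.34, -0.10 and -0.09. Scaling to spike-in controls, which moved all genes by -0.40 at 4 h, puts this second probe below the control.

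Itgb5, the partner of Itgav in a vitronectin receptor, was lower on all 3 pulsed arrays. The signal was 3.13 in the control, 2.04 at 4 h, 2.51 at 20 h and 2.64 at 32 h (probe at chr16:33949123-33949182, plus strand, mm9). The 4 h array was the lowest and the control the highest. The log2 ratios were -1.09 ± 0.20 at 4 h, 2.13-fold lower, then -0.62 and -0.49. At 4 h this placed Itgb5 at percentile 6.79 of all genes. The sign held under every scaling tried at all 3 times, though at 4 h the scalings by a constant could only lower it.

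Itgb4, the chain that pairs with Itga6 in laminin receptors of epithelia, had signals of -2.55 in the control, -2.38 at 4 h, -3.58 at 20 h and -3.50 at 32 h (chr11:115869666-115869725, plus strand, mm9). Both late arrays were lower than the control and the 4 h array. The log2 ratio was 0.17 ± 0.23 at 4 h, a sign that turned under 3 scalings, then -1.03 ± 0.25 at 20 h and -0.96 ± 0.27 at 32 h. Itgb3, another partner of Itgav, went the other way at the late times, at 0.013, 0.60 and 0.61, with spot errors of 0.27 to 0.29. Itgb7, best known from lymphocyte homing receptors, gave 0.31, 0.33 and 0.02. Of the 9 leukocyte markers, Cd3e, Cd79a, Itgb2, Itgam and Csf1r were well above background on all 4 arrays and 3, Ptprc and Tyrobp among them, on none. Their part in the Itgb7 signal was not tested.

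Itga7, the alpha chain of a laminin receptor known from skeletal muscle, had the largest ratio of the 32 genes. Its signal was -3.03 in the control, 1.25 at 4 h, -2.81 at 20 h and -2.26 at 32 h, from 1 probe at chr10:128395274-128395333 on the plus strand (mm9). The 4 h array stood far above the other 3. The log2 ratio was 4.29 ± 0.23 at 4 h, 19.5-fold higher and at percentile 99.9 of all genes, and it stayed between 3.88 and 4.24 under the other scalings. At 20 h it was 0.23 ± 0.25 and at 32 h 0.77 ± 0.24. Of 6 muscle markers, Acta1 was present at 4 h alone, and Myog, Myod1, Des, Ckm and Myh11 were not well above background on any array.

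Itga5, the fibronectin receptor chain that pairs with Itgb1, and Itga1, a collagen receptor chain, were the other alpha subunits above the control at 4 h. The Itga5 signal was -1.0 in the control, -0.29 at 4 h, -1.27 at 20 h and -1.22 at 32 h, with the 4 h array the highest. Its log2 ratios were 0.72 ± 0.21, -0.27 and -0.22, and the 20 h value turned above 0 without scaling. By its brightest probe Itga1 gave 0.68 ± 0.23 at 4 h, -0.97 ± 0.28 at 20 h and -0.71 ± 0.29 at 32 h. Each sign held under every scaling tried. The Itga1 signals were low, at -2.86 in the control, -2.18 at 4 h, -3.83 at 20 h and -3.57 at 32 h. Its other probe, at chr13:115756765-115758419 (minus strand, mm9), stayed at background throughout and gave no ratio. The Itga1 ratios therefore rest on 1 probe. The difference between times was not tested.

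Itgav, which pairs with several beta chains to bind vitronectin and other RGD ligands, had signals of 0.51 in the control, 0.47 at 4 h, 0.21 at 20 h and 0.35 at 32 h. All 3 ratios, -0.04, -0.29 and -0.16, were within 1.5 spot errors of 0. A second, dimmer probe read 0.52 ± 0.21 at 4 h, -0.09 at 20 h and 0.22 at 32 h, so the probes differed at 4 h.

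Itga8 and Itga9, chains of receptors for nephronectin and for tenascin C and osteopontin, were lower on all 3 pulsed arrays. Itga8 signals were -2.26 in the control, -3.02 at 4 h, -3.31 at 20 h and -2.98 at 32 h (chr2:12028462-12028521, minus strand, mm9), with the control the highest. The log2 ratios were -0.75 ± 0.22, -1.04 ± 0.23 and -0.71 ± 0.23. Itga9 signals were -3.65 in the control, -4.39 at 4 h, -4.99 at 20 h and -4.86 at 32 h, where the probe (chr9:118807900-118807959, plus strand, mm9) was no longer well above background. The ratio was -0.74 ± 0.32 at 4 h and -1.34 ± 0.37 at 20 h, at percentile 0.957 of all genes, and at 32 h the level was at least 2.11-fold lower than the control.

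Neither of the remaining alpha chains passed 2-fold. Itga6, a laminin receptor chain, gave -0.52, 0.11 and 0.00, but its 2 probes lay on opposite sides of the control at 4 h (below). Itga11, a fibroblast collagen receptor chain, gave -0.29, 0.31 and 0.60 ± 0.21.

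**Figure D3:**
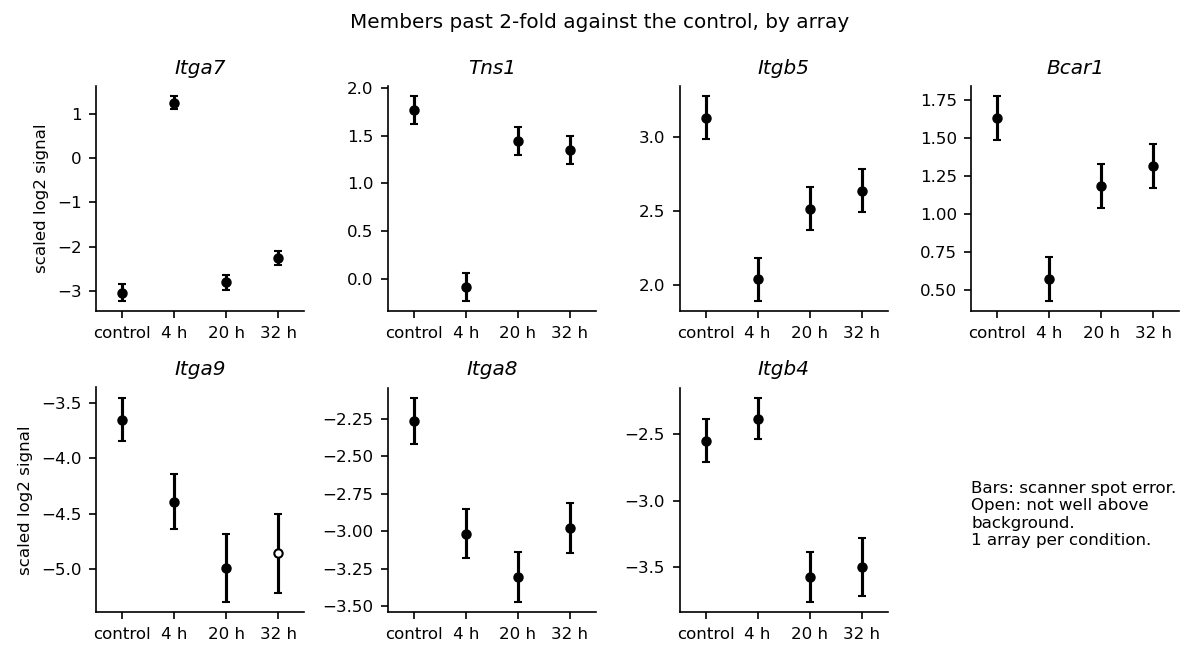
Scaled log2 signal (y axis, a separate scale for each gene) on the control, 4 h, 20 h and 32 h arrays (x axis) for the 7 genes past 2-fold against the control, with the scanner spot error as bars and an open circle where the probe was not well above background. Itga7 peaks at 1.25 at 4 h, Tns1, Itgb5 and Bcar1 are lowest at 4 h, and the points of Itga9, Itga8 and Itgb4 are lowest at 20 h. For Itga9 the 32 h point was not well above background. For Itgb4 the 20 h and 32 h points differ by less than 1 spot error (-0.07 ± 0.29).

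Most of the proteins behind the beta tail lay below the control at 4 h. Of 11 measured, 9 were below, with a median log2 ratio of -0.30 and a range of -1.86 to 0.022, and the 2 above it, Parva at 0.022 and Lims1 at 0.0039, turned below under each of the 5 scalings. At 20 h the split was 5 above and 6 below with a median of -0.011, and at 32 h 3 above and 8 below with a median of -0.043.

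Tns1 encodes tensin 1, which binds beta tails and actin in mature fibrillar adhesions. It had signals of 1.77 in the control, -0.09 at 4 h, 1.44 at 20 h and 1.35 at 32 h (chr1:73956848-73956907, minus strand, mm9). The 4 h array was the lowest by a wide margin. The log2 ratio was -1.86 ± 0.20 at 4 h, 3.63-fold lower and at percentile 1.39 of all genes, then -0.33 and -0.42, and the 20 h value turned above 0 without scaling. Both other Tns1 probes were lower at 4 h too, at -1.87 ± 0.32 and -2.74 ± 0.21.

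Talin 1 and zyxin, the adhesion's main clutch and a tension-sensing LIM protein, were both lowest at 4 h. Tln1 signals were 3.96 in the control, 3.68 at 4 h and 3.92 at both later times. Its ratio of -0.28 ± 0.20 at 4 h was followed by -0.04 at 20 h and 32 h. Zyx signals were 3.94, 3.51, 4.12 and 4.01, with ratios of -0.43 ± 0.20, 0.18 and 0.07, the first past 2 spot errors.

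Ilk, the pseudokinase that joins parvin and PINCH on beta tails, gave -0.59 ± 0.20 at 4 h and then 0.05 and -0.04. Its partners Parva and Lims1 stayed between -0.07 and 0.14 at all times by their brightest probes, but both other Parva probes were lower throughout, at -0.54, -0.63 and -0.43 and at -0.52, -0.55 and -0.30 at 4 h, 20 h and 32 h. Tln2, the second talin, gave -0.46, 0.11 and 0.24.

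The actin crosslinkers did not follow this course. Flna, filamin A, gave -0.43, -0.45 and -0.48, each ± 0.20, and so was as low at 32 h as at 4 h. Actn1, alpha-actinin 1, gave -0.30, -0.63 and -0.85, each ± 0.20, and was lowest on the latest array. Actn4 stayed within 1 spot error of the control at -0.14, -0.15 and -0.19. Fermt2, kindlin 2, which binds the beta tail and is no crosslinker, gave -0.22, 0.30 and 0.44 ± 0.20 by its brightest probe. Its other probe gave 0.44, 0.56 and 0.50, with the opposite sign at 4 h.

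Among the kinases and docking proteins, Bcar1, the p130Cas scaffold that is phosphorylated when stretched, passed 2-fold. Its signal was 1.63 in the control, 0.58 at 4 h, 1.19 at 20 h and 1.31 at 32 h (chr8:114234418-114234477, minus strand, mm9). The 4 h array was the lowest and the control the highest. The log2 ratios were -1.05 ± 0.20 at 4 h, 2.07-fold lower and at percentile 7.45 of all genes, then -0.44 and -0.31.

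Ptk2, focal adhesion kinase, had signals of 0.54 in the control, 0.13 at 4 h, 0.50 at 20 h and 0.53 at 32 h by its brightest probe. The ratio was -0.40 ± 0.20 at 4 h and within 0.05 of 0 later. Pxn, paxillin, had signals of -3.47, -3.22, -2.80 and -3.31, with the 20 h array the highest. Its ratios were 0.25 ± 0.25 at 4 h, where the sign turned under 4 scalings, 0.67 ± 0.25 at 20 h and 0.16 at 32 h. Src was present on 3 arrays at low signal. At 4 h it was not well above background and at least 1.43-fold lower than the control, and it gave -0.42 ± 0.38 at 20 h and 0.37 ± 0.35 at 32 h.

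The later arrays lay nearer to the control. At 20 h all 28 genes with a ratio were measured, with a median of -0.094 against -0.0010 for all genes. None was 2-fold higher (1.46% of all genes were), and Itga9, Itga8 and Itgb4, 10.714%, were 2-fold lower beside 3.56% of all genes. The last of these stood at -1.03 and the next, Itga1, at -0.97, so the count of 3 depended on where the threshold fell. Beyond 2 spot errors lay 2 of the 28 genes above the control (7.31% of all genes) and 8 below (8.71%). At 32 h the median was -0.043 against -0.00060, none was 2-fold higher (2.24% of all genes) and Itga9 was 2-fold lower (2.77%). Of the 27 measured there, 4 were above by more than 2 spot errors (8.1% of all genes) and 7 below (9.16%). Without scaling the median at 20 h was 0.24, and the median of all genes moved by 0.33 with it.

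The arrays at 20 h and 32 h were taken to look for circadian change. Of 27 genes measured, none was 2-fold higher or lower, and over all genes, which also differed little (robust SD 0.14), 0.947% and 2.11% were, so the count of 0 sets nothing apart. The log2 ratio of 20 h over 32 h ran from -0.78 ± 0.36 for Src to 0.51 ± 0.24 for Pxn, with a median of -0.0088. Src, Pxn and Itga7, the last at -0.55 ± 0.23, were the 3 genes past 2 spot errors, 1 above and 2 below, where 1.35% and 2.66% of all genes were. Src lay at percentile 0.895 and Pxn at 99.0 of all genes, both with spot errors above the typical 0.20. A single sample at each of 2 times cannot separate a rhythm from drift.

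Where a gene had several probes, they did not always give 1 answer at 4 h. Ptk2 read 0.78 ± 0.21 by a probe 115574 bases 5′ of the one that gave -0.40. Itga6 read 0.51 ± 0.20 by its 5′ probe and -0.52 ± 0.20 by its 3′ probe, and Fermt2 0.44 ± 0.21 and -0.22 ± 0.20. In Itgav the 5′ probe read 0.52 ± 0.21 and the brightest, 3′ probe -0.04. Of 9 genes with at least 2 measured probes, 7 had the higher ratio at the 5′-most probe, and the median difference was 0.56. Over 3631 gene names the median difference was 0.044, with 57.312% higher at the 5′ probe.

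By more than 2 spot errors, 3 of the 9 genes were higher at the 5′ probe and 0 at the 3′ probe, beside 13.908% and 7.684% of all genes. With the main scaling, Tns1 and Itgb1 gave the same direction at 4 h with every probe. At 20 h the difference over all genes was -0.0064 and at 32 h -0.036, and in the 9 genes 0.14 and 0.094. Parva kept a gap at 20 h, with 0.14 by the 5′-most probe and -0.63 by the 3′-most. Signs at 4 h for Ptk2, Itga6 and Fermt2 therefore belong to a probe and not to the gene as a whole. Transcript ends, RNA quality and labelling from the 3′ end were not tested as a source.

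**Figure D4:**
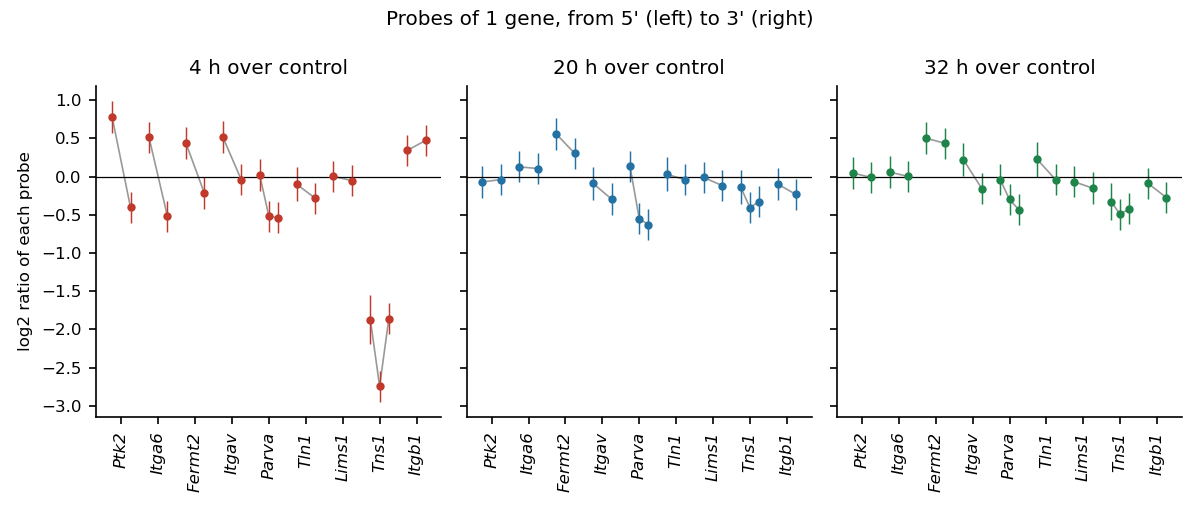
Log2 ratio over the control (y axis) of every measured probe of the 9 genes with several, drawn from 5′ (left) to 3′ (right) within each gene along the x axis, at 4 h, 20 h and 32 h, with spot errors as bars. At 4 h Ptk2 goes from 0.78 to -0.40 and Itga6 from 0.51 to -0.52 from the 5′ to the 3′ probe, and at 20 h and 32 h the probes of both lie within 0.13 of the control.

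Promoters of Itgb5, Tns1 and Itgb1 are printed to show what sequence lies at their start sites. Itgb1 was not past 2-fold at 4 h. Bcar1, which was, had windows too, and these are not printed. The windows run from 250 bases before to 50 after the start (RefSeq, GRCm38.p6), and 24 of the 32 genes matched, with 29 promoters. No entry was matched for Itgb3, Ptk2, Pxn, Tln2, Itga6, Itgb4, Itga7 and Parva. Capitals mark matches on either strand to 5 motifs: the E-box CACGTG, the heat shock element GAANNTTC, the antioxidant response element TGACNNNGC, the TEAD site GGAATG and the CArG box. The first is Itgb5 (chr16:33829415-33829714, plus strand), the second Itgb1 (chr8:128685404-128685703, plus strand) and the third Tns1 (chr1:74124499-74124798, minus strand).
Itgb5: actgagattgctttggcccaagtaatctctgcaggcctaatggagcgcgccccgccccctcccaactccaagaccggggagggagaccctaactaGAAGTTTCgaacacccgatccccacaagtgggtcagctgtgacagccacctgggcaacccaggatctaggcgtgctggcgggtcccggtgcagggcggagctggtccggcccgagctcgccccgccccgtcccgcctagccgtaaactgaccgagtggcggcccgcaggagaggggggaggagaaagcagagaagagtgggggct
Itgb1: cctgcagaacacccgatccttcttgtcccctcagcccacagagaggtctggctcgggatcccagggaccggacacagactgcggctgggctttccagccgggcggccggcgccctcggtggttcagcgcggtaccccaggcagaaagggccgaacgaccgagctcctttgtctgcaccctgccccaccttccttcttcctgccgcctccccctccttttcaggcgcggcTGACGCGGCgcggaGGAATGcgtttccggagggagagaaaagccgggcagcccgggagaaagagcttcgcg
Tns1: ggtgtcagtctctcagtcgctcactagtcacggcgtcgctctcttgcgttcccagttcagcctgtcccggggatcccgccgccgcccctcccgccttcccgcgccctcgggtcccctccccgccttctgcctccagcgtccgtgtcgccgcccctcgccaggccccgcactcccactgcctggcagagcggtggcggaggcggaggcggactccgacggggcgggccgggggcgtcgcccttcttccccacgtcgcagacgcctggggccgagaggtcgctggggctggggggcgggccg

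In Itgb5 the heat shock element begins at -155. In Itgb1 the antioxidant response element begins at -21 and the TEAD site at -7, and the matches do not overlap. None of the 5 motifs occurred in the Tns1 window or in the Bcar1 windows. Each motif lay in 1 to 4 of the 29 promoters, too few to say whether its frequency differed from that in all 32851 windows. The E-box lay in 2 (Ilk and Lims1) against 7.150% of all, the heat shock element in 1 against 7.860%, the antioxidant response element in 4 (Fermt2, Itga9, Itgb1 and Lims1) against 12.392%, the TEAD site in 3 (Actn4, Flna and Itgb1) against 14.663% and the CArG box in 1 (Fermt2) against 1.629%. A match is a description of letters and not a site of binding.

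Other genes of the pathway were taken from 4 lists. Among other adaptors and scaffolds of adhesions, 46 genes had a ratio at 4 h, of which 1 was 2-fold higher (2.174%) and 11 were 2-fold lower (23.913%, beside 8.26% of all genes), with a median of -0.21. Vcl, vinculin, which binds stretched talin, had signals of 0.99 in the control, -0.48 at 4 h, -0.84 at 20 h and -0.92 at 32 h. All 3 pulsed arrays were below the control, with log2 ratios of -1.47, -1.83 and -1.92, each ± 0.20 to 0.21. Cav1, the caveolar coat protein, was at -1.67 at 4 h, Tgfb1i1, the paxillin relative Hic-5, at -1.32 and Jub, a zyxin relative, at -1.23. The 1 gene higher was Parvg, named after its values were seen, at least 8.25-fold above the control.

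At 20 h 6 of 41 of these adaptors were 2-fold lower (14.634%, beside 3.56%) and at 32 h 3 of 42 (7.143%, beside 2.77%), with none 2-fold higher. Of the 4 named as lower at 4 h, Cav1 was at -1.16 and -0.34 at the later times, and Vcl alone of the 4 was still 2-fold below at 32 h. Of the fibroblast markers, 11 of 12 were present on each of the 4 arrays, Fap being on none, with a summed linear signal of 664 in the control and 593 to 621 afterwards (in units of the 75th percentile), of which S100a4 made up 42.640% to 47.940%. Of the 11 with a ratio, 2 were 2-fold lower at 4 h, Pdgfra (-1.55) and Pdgfrb (-1.35), beside 8.26% of all genes. At 20 h 3 were, Thy1 (-1.39), Col1a1 (-1.06) and Col3a1 (-1.02), beside 3.56%. None was 2-fold lower at 32 h (2.77% of all genes). None was 2-fold higher at 4 h, 20 h or 32 h, beside 11.1%, 1.46% and 2.24% of all genes. In bulk RNA, fewer cells of a kind and less RNA per cell cannot be told apart.

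Among other integrin subunits, 6 of 10 had a ratio at 4 h and 2 were 2-fold higher (33.333%, beside 11.1%). Itga10, a collagen receptor chain of cartilage, had signals of -3.13 in the control, -0.36 at 4 h, -3.11 at 20 h and -2.73 at 32 h, a single high array as for Itga7, and a log2 ratio of 2.77 ± 0.23 at 4 h. Itgax, a chain of myeloid cells named after its values were seen, was present at 4 h alone and at least 3.93-fold higher than the control. The leukocyte markers, 5 of 9 present on every array, summed to a linear signal of 22.4 in the control, 33.0 at 4 h, 12.5 at 20 h and 13.0 at 32 h. That list shares Itgb2 and Itgam with the integrin list, and Itgam alone made up 85.141% to 91.817% of the sum. The other markers summed to 1.79 to 2.70, and 1 of them, Cd79a, was 2-fold higher at 4 h (2.40 ± 0.23). Lcp1, present in the control alone, went the other way. It was at least 1.86-fold lower at 4 h, 2.09-fold at 20 h and 1.61-fold at 32 h. The part of leukocyte genes in these values was not tested. Of 8 epithelial and 5 endothelial markers, 3 and 2 were present on every array. At 4 h 1 of 4 epithelial markers with a ratio, Krt8 (1.17 ± 0.21), was 2-fold higher. So was 1 of 3 endothelial markers, Cdh5 (1.87 ± 0.30).

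Of 54 genes that carry adhesion signals to GTPases and kinases, 2 were 2-fold higher (3.704%, beside 11.1% of all genes) and 4 lower (7.407%, beside 8.26%) at 4 h, with a median of 0.21 beside 0.17 for all genes. Arhgef2, the exchange factor GEF-H1 that is released from microtubules, was at 1.84 ± 0.20 and Rac1, the GTPase of lamellipodia, at 1.15 ± 0.20. Pak1, a kinase that Rac activates, was at -2.29 and Myl9, a myosin light chain, at -1.88. Capn1, a protease that can cut talin, was at -1.15 and Nck2, an adaptor to actin nucleation, at -1.07. At the later times Myl9 was not well above background and at least 12.7-fold lower at 20 h and 9.78-fold at 32 h, and Pak1 was at -0.90 and -1.30.

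Of 31 non-collagen ligands with a ratio at 4 h, 2 were 2-fold higher (6.452%, beside 11.1% of all genes) and 1 lower (3.226%, beside 8.26%), with a median of -0.060. Vcam1, the ligand of Itga4 integrins, was at 1.20 ± 0.20, although Itga4 itself was not well above background. Vwf, named after its values were seen, was at least 2.33-fold higher. Ctgf, a matricellular ligand, had signals of -0.05 in the control, -4.28 at 4 h, -3.01 at 20 h and -3.27 at 32 h. Its log2 ratio of -4.22 ± 0.28, 18.7-fold lower, was followed by -2.96 and -3.22. At 20 h 4 ligands of 30 were 2-fold lower (13.333%, beside 3.56% of all genes) and at 32 h 4 of 28 (14.286%, beside 2.77%). These were Ctgf, Cyr61 (-2.18 and -2.05), Bgn (-2.13 and -1.70) and Spp1, osteopontin (-1.16 and -1.42), the last 3 named after their values were seen.

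**Figure D5:**
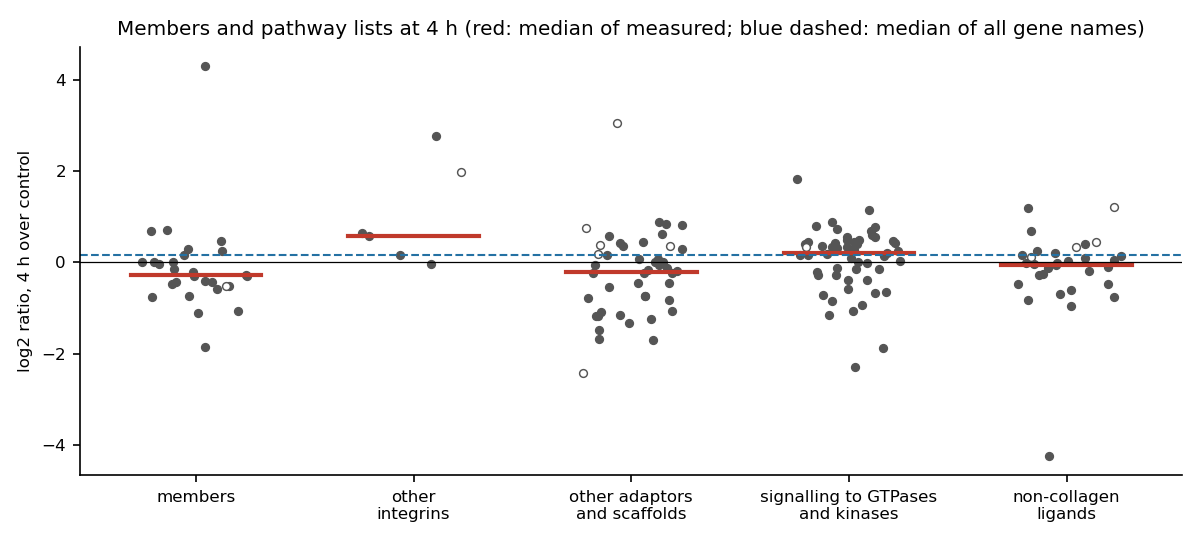
Log2 ratio at 4 h over the control (y axis) of every gene with a ratio among the 32 integrin and adhesion genes and the 4 pathway lists (x axis), with filled circles for measured ratios, open circles for bounds, red bars for medians of measured ratios and a blue dashed line for the median of all gene names, 0.17. The medians are -0.28, 0.57, -0.21, 0.21 and -0.060 from left to right.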

How the data were processed

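The 4 arrays (Agilent one-color Mouse GE 4x44K v2) were read from scanner files. The authors deposited an intensity for each spot, background-subtracted by Agilent Feature Extraction 10.7.3.1, and a table of ratio values, which was those intensities divided by 1 constant per array (largest deviation 0.0001% over 44397 spots; column medians 0.0590, 0.0757, 0.0546 and 0.0587; no centring by gene). This table was used as an alternative.

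Log2 intensities without outlier flags (125 to 161 of 43020 spots per array were flagged, 0 saturated) were averaged per probe and expressed relative to each array's 75th percentile. A probe was present where 50% or more of its spots carried the well-above-background flag (52.657% to 59.081% of probes). Ratios were measured where both arrays were present. With 1 present, the bound divided its signal by that of the dim array or, where larger, by the weakest present signal there (scaled log2 -5.11 to -4.73), and none where the bright signal did not exceed it. Spot errors (median 10.0% to 10.1% of a signal) were propagated from the scanner's own error. They cover the spot only, and precision is limited by the number of arrays.

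No test was made: the SAM analysis named in the methods could not be repeated with 1 array per condition, and counts used 2-fold. Full values are given for genes past 2-fold in any comparison and for Itgb1, Itgav, Itga5, Ptk2, Pxn, Tln1 and Zyx, for up to 5 genes each way per list at 4 h, and for genes whose probes opposed each other. Some genes that this rule names are held back for evaluation and left out. Members, roles and lists were chosen with earlier results of these data known. Probe positions are mm9, per the array annotation, and exon or UTR annotation of that build was not used here. Python 3.11.15, numpy 2.4.6, pandas 2.3.3, R 4.3.3 and limma 3.58.1 (normexp, offset 50) were used, and the scripts were tested on simulated data. Alternatives were 5 scalings, normexp, the presence filter, flags kept, the probe of a gene, the deposited table and thresholds of 1.5-fold and 3-fold.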

Additional observations from a re-analysis of the deposited data

Results flagged for a closer look

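By its brightest probe Itga1 was on opposite sides of the control at different times. The log2 ratio was 0.68 at 4 h, -0.97 at 20 h and -0.71 at 32 h. The signal of that probe was low, at -2.86 in the control and -3.83 at 20 h. The other Itga1 probe stayed at background throughout, so the change of side was seen by 1 probe only. The difference between times was not tested, since each time had 1 array.

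A few probes that did not give their gene's value carried signal above the control at 4 h where the brightest probe lay below it. Their log2 ratios were 0.44 for Fermt2, 0.51 for Itga6, 0.52 for Itgav and 0.78 for Ptk2.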

How the results depend on the processing

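No paired analysis was possible because each condition had 1 array. No recomputed value past 2-fold changed sign under any alternative. Most alternatives could not have changed such a sign. The 5 scalings moved the median of all genes by 0.40 at most on the log2 scale, and a threshold leaves signs as they are. Of 730 recomputed values, 496 stayed within their error. The median log2 ratio of the 32 genes at 4 h, -0.28, became -0.64 with the median of all probes as the reference, -0.68 with spike-in probes, -0.68 with spike-in probes less the 1 furthest from the others (chosen after seeing the data) and -0.56 without scaling. At 20 h it was 0.24 without scaling beside -0.094 as reported. The count of 1 gene 2-fold higher at 4 h was 2 without a presence filter, 2 with the scanner's positive-and-significant flag, 2 with the deposited table and 3 at 1.5-fold. The count of 3 genes lower was 5 with the median of all probes, 5 with either spike-in setting, 5 without scaling, 6 after quantile normalization, 6 at 1.5-fold and 1 at 3-fold. The cause was not tested, beyond the shift of all genes that each scaling makes by its construction. Dim probes (Src, Itga9, Pxn, Itgb3) had spot errors of up to 0.38 on the log2 ratio.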

Other observations

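Some genes near Itga7 on its chromosome were read at 4 h as well, chosen after the value of Itga7 was seen. By probe position (mm9), Cd63 lies beyond Bloc1s1 as seen from Itga7. Log2 ratios over the control were -0.39 ± 0.20 for Bloc1s1 and 0.37 ± 0.20 for Cd63, and Mettl7b gave no ratio, being at background throughout.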
